A study of Rattus norvegicus with 10 samples.

Results

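The genes described here are the hepatic transporters of drugs, bile constituents and lipids, taken as every gene of the Slc22a, Slco, Slc10a, Abca, Abcb, Abcc and Abcg families that the array's annotation names without ambiguity. A probe set entered if its annotation gave exactly 1 gene symbol of these families, and a gene with several probe sets was represented by the one with the highest mean log2(intensity + 16) over all 10 arrays. This gave 64 genes, covered by 86 probe sets, of 14217 genes with 1 symbol. The 64 genes comprise 16 of the Slc22a, 13 of the Slco, 5 of the Slc10a, 8 of the Abca, 7 of the Abcb, 9 of the Abcc and 6 of the Abcg family. Of these, 45 lay above the filter level, a mean log2 value of 6.27 or an intensity of 61.1, and 19 lay at or under it. Just under the level was Slco4a1 at a mean log2 value of 6.26, and just above it was Abcc1 at 6.48.

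Livers came from 10 Wistar/ST rats, all on a high-fat diet, with 1 Affymetrix array per rat. Mulberry rats (5) were given dried mulberry leaf powder, suspended in carboxymethylcellulose, through a gastric probe at a daily 500 mg per kg, and the dose of control rats (5) was 0 mg per kg. Dosing followed an overnight fast and livers were taken after 7 weeks; the labels give no age or sex. The comparison asks what the leaf powder does to liver transcripts when the diet is rich in fat, and there is no group on another diet among the arrays.

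A hepatocyte takes up bile acids, hormones and drugs from sinusoidal blood through sodium-dependent carriers of the Slc10a family and through organic anion and cation carriers of the Slco and Slc22a families. It exports them across the opposite, canalicular membrane into bile through ATP-driven pumps of the Abcb, Abcc and Abcg families, and other Abc proteins move cholesterol and phospholipid to lipoproteins or act inside organelles. Bile acid, oxysterol and xenobiotic receptors are known to adjust many of these genes, so their transcripts are commonly read as a sign of altered bile acid or foreign compound load.

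The tissue label was checked first. All 9 measured hepatocyte markers were above the filter level, with mean intensities in control rats from 12527 for Hnf4a to 36655 for Apoc3. Among bile duct markers Krt7, Cftr and Spp1 lay under the level. Summed marker intensity overlapped between the groups for hepatocytes (246321 to 295405 in control and 244314 to 302601 in mulberry rats), macrophages (7796 to 15157 and 6892 to 13021), endothelium (7466 to 9570 and 7997 to 10072), stellate cells (3258 to 5067 and 4014 to 4986), bile ducts (563 to 727 and 489 to 828), lymphocytes and neutrophils (737 to 1242 and 865 to 1087) and red blood cells (17237 to 30016 and 23221 to 27439). Bright genes carry most of such a sum, Clec4f and Cd5l in macrophages and Hbb in red blood cells, so its overlap says little about dim markers. At an unadjusted limma p under 0.05 were 1 of 6 macrophage markers above the level, Cd68 (0.39 ± 0.18), and 2 of 5 lymphocyte and neutrophil markers. The latter were the neutrophil genes S100a8 (-0.62 ± 0.27) and S100a9 (-0.77 ± 0.19). In the other marker lists 0 were, against 1.79% of all genes tested. The other macrophage markers differed by -0.02 to 0.15. The other lymphocyte and neutrophil markers above the level differed by -0.10 to 0.20. In the fit without a filter the bile duct gene Krt7 also had an unadjusted limma p under 0.05 (-0.61 ± 0.22), as did 2.52% of all genes. The adjusted test was passed by 0 markers, and the part of the markers in the transporter values was not tested. Correlations between arrays lay between 0.953 and 0.982. In whole liver, fewer cells of a type and less RNA per cell cannot be told apart.

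No transporter gene passed the test between mulberry and control rats. Of the 45 transporters above the filter level, 0 passed an adjusted p of 0.05 with limma, the linear model fitted over all 18625 probe sets, and the smallest adjusted p among them was 0.9999. The percentage of all probe sets called by that rule was 0. The exact permutation test with the same adjustment also called 0. That count was nearly fixed in advance, since its smallest possible p of 0.00794 passes the adjustment only if many probe sets share it. At an unadjusted limma p under 0.05 the count was again 0 of 45 transporters, against 1.79% of all 10328 genes tested (185 genes; 1.13% higher and 0.658% lower with mulberry). No transporter had groups that did not overlap, against 0.32% of all genes (33 genes). The smallest exact permutation p of a transporter was 0.111, where 5 rats against 5 can reach 0.00794.

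Each difference below is the mulberry mean less the control mean of log2(intensity + 16), followed by its standard error (SE) from limma, and the 95% intervals are per gene. The 45 measured transporters spread from -0.33 to 0.28 around a median of 0.016, beside a median of 0.0035 over all genes tested. A higher mean with mulberry was seen in 24 (53.3%) and a lower mean in 21, against 51.3% higher over all genes. With every array moved to a common median the split was 20 higher and 25 lower. The transporter median was -0.012 after that shift, beside -0.020 over all probe sets tested. The median absolute difference was 0.083 in the transporters and 0.083 over all genes. For 25 of the 45 the whole 95% interval lay within 0.5 of 0, a bound of 1.41-fold in either direction, and this held for 64.8% of all genes. The other 20 had intervals that reached past that bound, so a change of that size was not excluded for them. By family the medians were -0.00029 for Slc22a (10 genes above the level), -0.0089 for Slco (6), 0.11 for Slc10a (4), 0.028 for Abca (7), -0.052 for Abcb (6), 0.056 for Abcc (7) and 0.022 for Abcg (5).

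**Figure D1:**
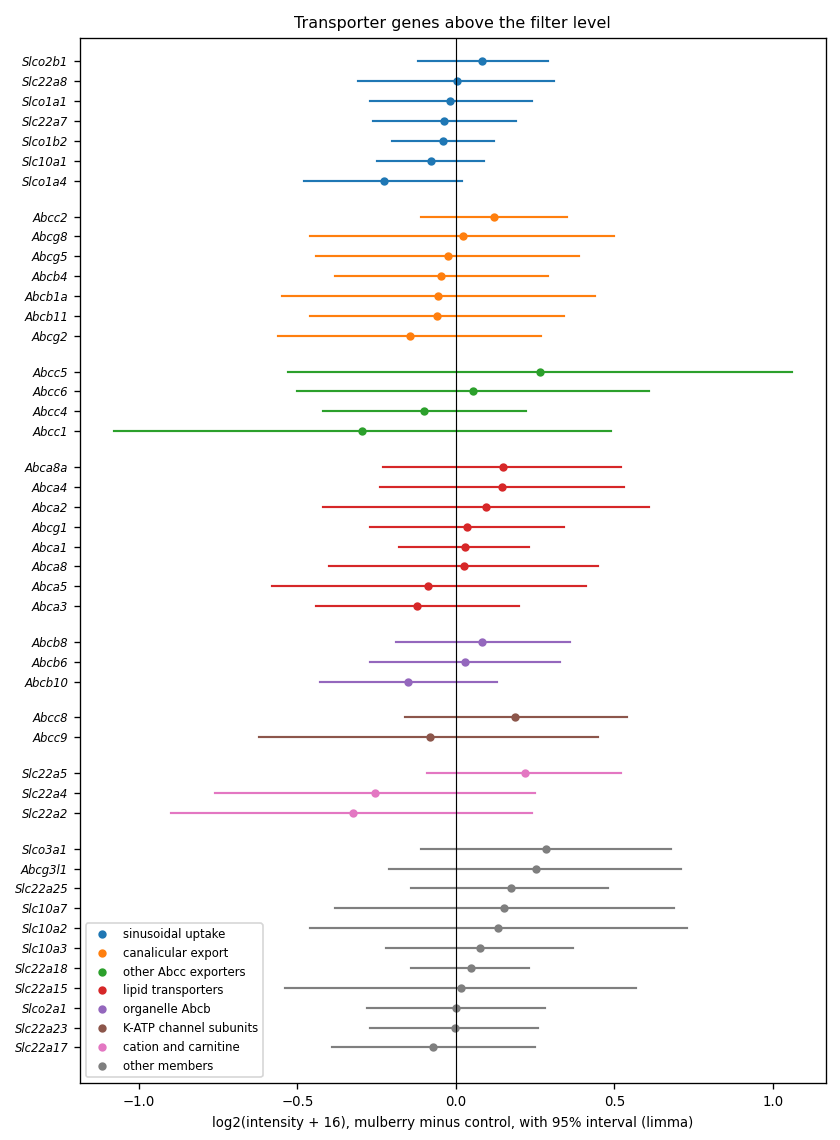
Differences on the log2(intensity + 16) scale, mulberry minus control (horizontal axis), for the 45 transporter genes above the filter level, grouped by role. Points are limma estimates and lines their 95% intervals; each line crosses 0, and the estimates span -0.33 to 0.28.

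The sinusoidal uptake carriers had the lowest median spread between rats of the role groups. For the chosen probe sets of all 7 the 95% interval stayed within 0.5 of 0, with differences from -0.23 to 0.08, 5 lower and 2 higher. Second probe sets of Slco1a4 (-0.32 ± 0.16) and Slc22a8 (-0.19 ± 0.18) were less precise and did not keep to that bound. Those of Slco1b2 (0.05 ± 0.11) and Slco2b1 (0.01 ± 0.15) did. The within-group SD of log2 values of the 7 chosen probe sets was between 0.09 and 0.25, with a median of 0.16. The median over the 45 transporters was 0.24.

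Slc10a1 encodes NTCP, the sodium-dependent carrier that brings conjugated bile acids into the hepatocyte. Slc10a1 was measured at 28105, 24859, 28607, 29961 and 26650 in control rats 1 to 5 and at 27854, 28901, 26375, 22905 and 24915 in mulberry rats 1 to 5. Mulberry rat 4 was lowest and control rat 4 highest, the groups overlapped, and the difference was -0.08 ± 0.08 (95% interval -0.25 to 0.09, exact permutation p = 0.317), which allows anything from 0.84 to 1.07 times the control level. Slco1b2, the liver's main sodium-independent carrier of bile acids and bilirubin conjugates, read 21872, 21188, 20967, 21014 and 19796 in the control and 22808, 20497, 19734, 20982 and 18113 in the mulberry animals. This chosen probe set was the most even of the transporters, with a within-group SD of 0.09 and a difference of -0.04 ± 0.07 (-0.20 to 0.12). A second probe set of Slco1b2 was less even and of the opposite sign (0.05 ± 0.11). It ran from 12144 to 14359 in control and from 11541 to 16463 in mulberry rats.

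Slco1a4, an organic anion carrier that in rodents is a known target of the xenobiotic receptor PXR, had the smallest limma p of the transporters (unadjusted p = 0.0699, adjusted p = 0.9999). Its intensities were 19117, 21352, 17135, 20810 and 18519 in control rats 1 to 5 and 20250, 19232, 16013, 14613 and 13450 in mulberry rats 1 to 5. Mulberry rats 3, 4 and 5 lay below every control rat and mulberry rats 1 and 2 among them, so the groups overlapped. Control rats had a mean of 19387 ± 1716 and mulberry rats one of 16711 ± 2933 (SD, n = 5 each), a difference of -0.23 ± 0.11 (-0.48 to 0.02, exact permutation p = 0.119). A second probe set of the gene gave 8272, 9417, 8232, 10700 and 7496 in control and 9191, 8442, 6883, 6412 and 4869 in mulberry rats, in the same rat order. There the difference was -0.32 ± 0.16 with an unadjusted limma p of 0.0613, again with overlapping groups, and mulberry rat 5 was lowest. The unadjusted limma p of the first probe set was 0.0404, 0.0176 and 0.0341 without control rat 3, mulberry rat 1 and mulberry rat 2. Each had an adjusted limma p of 0.9999. Of all probe sets in these fits, 2.19%, 1.8% and 2.17% had an unadjusted limma p under 0.05. With any other single rat left out it lay between 0.0816 and 0.191 for Slco1a4. Mulberry rats 1 and 2 lay among the control rats, so leaving either out widens the difference by construction. Without mulberry rat 5 the difference shrank to -0.15. The PXR gene Nr1i2 itself differed by 0.03 ± 0.14.

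**Figure D2:**
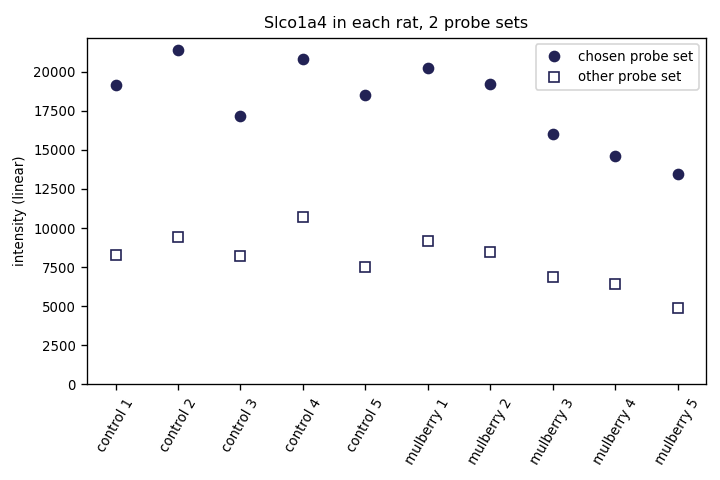
Linear intensity of Slco1a4 in each of the 10 rats (horizontal axis) from its 2 probe sets. Filled circles are the probe set that represents the gene and open squares the other; on the first mulberry rats 3, 4 and 5 sit at 13450 to 16013, under the control range of 17135 to 21352.

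Slco1a1, the sex-biased organic anion carrier of the same gene cluster, stood at 5479, 5372, 4328, 5535 and 5090 in control and 5103, 6137, 5465, 4962 and 3978 in mulberry rats. Mulberry rat 5 was lowest and mulberry rat 2 highest, and the means were nearly equal (-0.02 ± 0.12, -0.27 to 0.24). Slco2b1, a carrier of steroid sulfates found in many tissues, was at 1693, 1887, 1823, 1879 and 1751 and 2259, 1760, 1882, 1956 and 1749. Mulberry rats 1 and 4 exceeded the control range, and the difference was 0.08 ± 0.10 (-0.12 to 0.29).

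Slc22a7 and Slc22a8 encode the organic anion transporters Oat2 and Oat3. Slc22a7 had intensities of 4572, 5463, 6082, 5383 and 5263 in control rats and 5224, 6298, 5090, 4686 and 4838 in mulberry rats, a difference of -0.04 ± 0.10 (-0.26 to 0.19). Slc22a8 stood at 5382, 5035, 4222, 5903 and 4737 in control and 5173, 3465, 5913, 5480 and 5555 in mulberry rats, with mulberry rat 2 lowest of all 10. Its difference was 0.0026 ± 0.14 (-0.31 to 0.31), and a second probe set gave -0.19 ± 0.18.

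Canalicular exporters were split, 2 higher and 5 lower, with a median of -0.048. In the limma test 0 passed, and 0 had an unadjusted p under 0.05, against 1.79% of all genes tested. The within-group SDs of the exporters ran from 0.17 to 0.43 with a median of 0.35, and 4 of 7 intervals stayed within 0.5 of 0.

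Abcb11, the bile salt export pump (BSEP) that drives bile flow, was measured at 9034, 8587, 5190, 7915 and 6863 in control and 9196, 7893, 8102, 4772 and 6316 in mulberry rats. The lowest values came from control rat 3 and mulberry rat 4, 1 rat of each group, and the difference was -0.06 ± 0.18 (-0.46 to 0.34, exact permutation p = 0.77). Without mulberry rat 4 it was 0.081 and without control rat 1 it was 0.012. Abcb4, the phosphatidylcholine floppase that protects the bile duct from bile salts, gave 3206, 3675, 3244, 2309 and 2387 and 3740, 2664, 2782, 2769 and 2322. Control rat 2 and mulberry rat 1 were nearly equal at the top (-0.05 ± 0.15, -0.38 to 0.29). Abcc2, the conjugate exporter MRP2 that carries bilirubin glucuronides and glutathione, was at 4924, 5586, 5575, 4923 and 5981 in control and 5813, 5766, 5767, 4909 and 7235 in mulberry rats. Mulberry rat 5 stood highest, and the difference was 0.12 ± 0.11 (-0.11 to 0.35, exact permutation p = 0.262).

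The half-transporters Abcg5 and Abcg8 pair to secrete cholesterol and plant sterols into bile, and both are known targets of the oxysterol receptor LXR. Abcg5 read 842, 1416, 1731, 1733 and 1264 in control and 1059, 1202, 1435, 1366 and 1663 in mulberry rats, with a within-group SD of 0.35. Its difference was -0.03 ± 0.19 (-0.44 to 0.39). Abcg8 was at 178, 264, 374, 291 and 228 and 305, 227, 297, 165 and 370.3, a difference of 0.02 ± 0.22 (-0.46 to 0.50), with the highest value in control rat 3 and the lowest in mulberry rat 4.

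Abcg5 and Abcg8 lie head to head in the rat genome, so that 1 short stretch serves as the upstream region of both. Between their RefSeq starts, Abcg8 to the left on the minus strand and Abcg5 to the right on the plus strand, are 205 bases (GRCr8 chr6:15717731-15717935, intergenic, plus strand), shown because the paired genes were compared rat by rat. Capitals mark matches to TATAAA and to AGATAA, the latter a GATA-type motif, searched on both strands.
Abcg5-Abcg8: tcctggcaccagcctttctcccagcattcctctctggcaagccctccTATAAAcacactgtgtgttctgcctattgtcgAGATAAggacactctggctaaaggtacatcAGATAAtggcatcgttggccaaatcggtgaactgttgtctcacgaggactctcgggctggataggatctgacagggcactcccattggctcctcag
The stretch holds 2 matches to AGATAA and 1 to TATAAA. Of 33469 RefSeq upstream windows of 205 bases, 8.35% hold at least 1 match to AGATAA and 10.7% at least 1 to TATAAA. The nuclear receptor half-site AGGTCA (11.7% of windows), the longer CAAGGTCA that contains it (0.998%) and the HNF1 half-site GTTAAT (5.24%) had 0 matches in these letters.

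Across the 10 rats the intensities of Abcg5 and Abcg8 had a Pearson r of 0.63 (permutation p = 0.0576, adjusted p = 0.202 over 7 pairs) and a Spearman rho of 0.56 (permutation p = 0.095). Control rat 1 was lowest for Abcg5 and, after mulberry rat 4, lowest for Abcg8, while control rat 3 and mulberry rat 5 were high for both. Within groups, as deviations from the group mean, r was 0.63 (permutation p = 0.0593). Leaving out control rat 1 and mulberry rat 1, the farthest from the median of Abcg5, r was 0.74 over 8 rats (permutation p = 0.0346, adjusted p = 0.242), so the relation missed the threshold after adjustment in each form.

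Slco1a1 and Slco1a4 lie in one gene cluster on chromosome 4, and their upstream regions are related in sequence. The 250 bases before each RefSeq start (GRCr8, minus strand, chr4:176681993-176682242 for Slco1a1 and chr4:176495847-176496096 for Slco1a4) are shown because the pair was compared rat by rat. Capitals mark bases identical in the alignment of the pair, 175 of 234 aligned positions (74.8%).
Slco1a1: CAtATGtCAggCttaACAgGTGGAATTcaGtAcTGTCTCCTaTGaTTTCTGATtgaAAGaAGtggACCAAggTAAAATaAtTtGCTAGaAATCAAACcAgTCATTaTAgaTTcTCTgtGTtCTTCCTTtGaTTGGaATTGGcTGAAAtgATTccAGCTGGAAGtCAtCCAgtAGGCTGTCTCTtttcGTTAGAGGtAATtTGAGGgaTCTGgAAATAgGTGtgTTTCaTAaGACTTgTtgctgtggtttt
Slco1a4: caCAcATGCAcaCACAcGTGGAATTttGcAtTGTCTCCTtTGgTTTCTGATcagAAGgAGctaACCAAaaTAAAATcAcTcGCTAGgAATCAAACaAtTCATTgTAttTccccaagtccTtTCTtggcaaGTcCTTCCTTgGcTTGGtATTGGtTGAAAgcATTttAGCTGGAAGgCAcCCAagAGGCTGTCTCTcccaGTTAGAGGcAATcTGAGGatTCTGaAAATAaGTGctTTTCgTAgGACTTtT
The 5 motifs searched above had 0 matches in either stretch; of all windows of 250 bases, 12.9% hold TATAAA, 10.3% AGATAA, 14.1% AGGTCA, 1.33% CAAGGTCA and 6.45% GTTAAT. Over the 10 rats the pair had a Pearson r of 0.66 (permutation p = 0.0566, adjusted p = 0.202 over 7 pairs) and a Spearman rho of 0.64 (permutation p = 0.0537). As deviations from the group means r was 0.75 (permutation p = 0.0113, adjusted p = 0.079). Mulberry rat 5 was lowest for both genes and control rat 3 was second lowest for Slco1a1. Without these 2 rats, the farthest from the median of Slco1a1, r was 0.34 over 8 rats (permutation p = 0.404). Leaving out extreme rats narrows the range and can itself lower r, so this value does not show what the relation rests on. Slco1a1 and Slco1a4 are close paralogs, and how far their probe sets share signal was not tested.

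**Figure D3:**
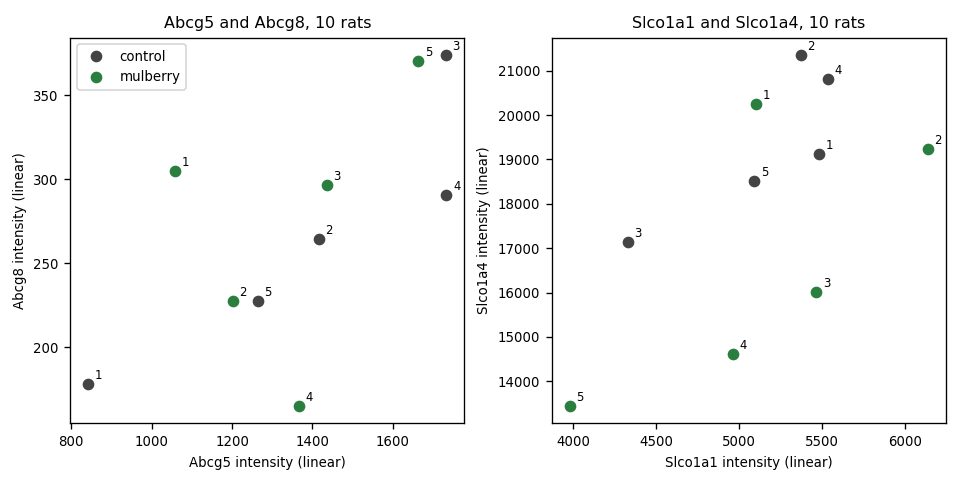
Linear intensity of Abcg8 against Abcg5 (left) and of Slco1a4 against Slco1a1 (right), 1 point per rat, numbered within its group. Control rat 1 is the leftmost point for Abcg5 at 842, and mulberry rat 5 is lowest on both axes of the right panel at 3978 and 13450.

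Of the other pairs compared, Slc10a1 with Abcb11, the entry and exit of bile salts, had an r of 0.44 (permutation p = 0.21), and an r of -0.02 without control rat 4 and mulberry rat 4. Abcb4 with Abcb11 had 0.31 (permutation p = 0.392) and Abcc2 with Abcc3 0.29 (permutation p = 0.407). In the latter pair Abcc3 lay under the filter level, with intensities from 13.5 to 75.6. Abca1 with Abcg1 had an r of -0.21 (permutation p = 0.583) and Slc10a1 with its repressor gene Nr0b2 0.07 (permutation p = 0.861). Spearman's rho for these 5 pairs was 0.19, 0.48, 0.48, -0.16 and -0.10 (permutation p = 0.603, 0.164, 0.167, 0.657 and 0.788), and 0 of 7 pairs passed an adjusted p of 0.05.

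Abcg2, an exporter of urate, porphyrins and many plant flavonoid conjugates, was at 361, 222, 299, 387 and 335 in control and 208, 376, 246, 370.5 and 256 in mulberry rats. The ranges of the groups nearly coincided, and the difference was -0.14 ± 0.19 (-0.56 to 0.27). Abcb1a, a P-glycoprotein gene, gave 598, 955, 721, 442 and 782 and 479, 860.4, 853, 450.3 and 739. Its within-group SD of 0.43 was the largest of the canalicular genes, and the difference was -0.06 ± 0.23 (-0.55 to 0.44) against 0.11 ± 0.25 on its second probe set.

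**Figure D4:**
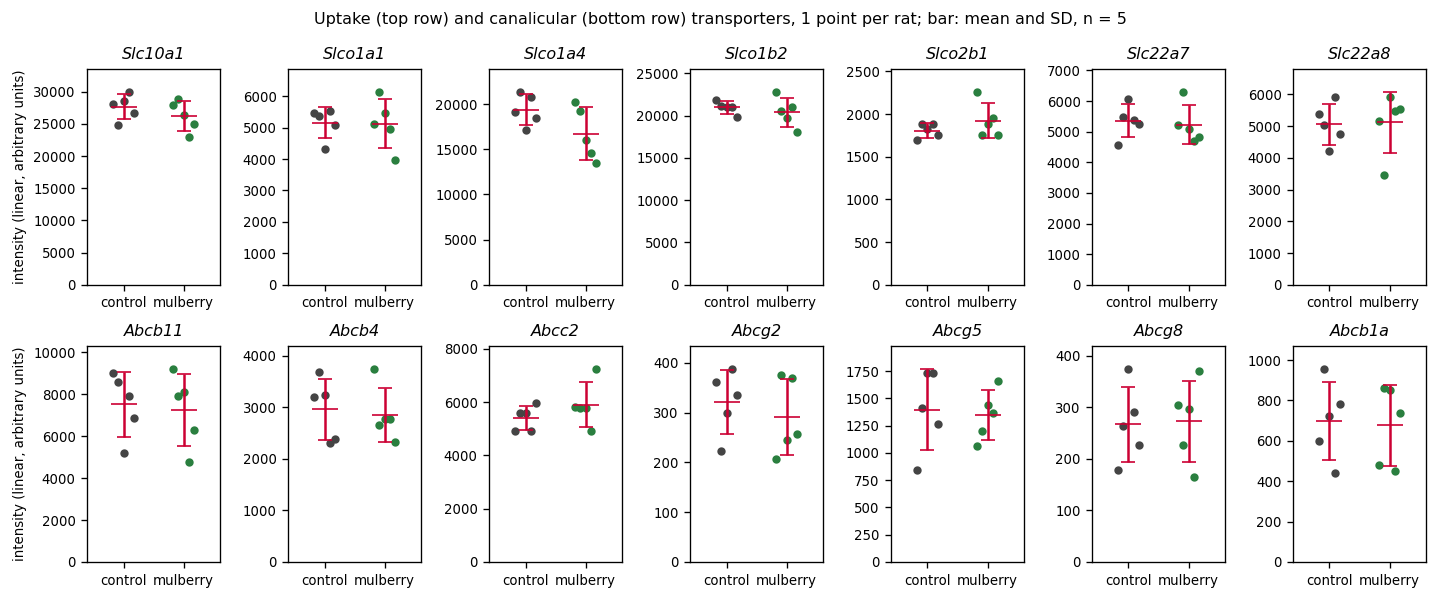
Linear intensity (vertical axes, from 0) of 7 sinusoidal uptake genes (top row) and 7 canalicular exporters (bottom row) in 5 control and 5 mulberry rats. Points are rats and bars mark the mean and SD; control and mulberry points overlap in every panel.

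The remaining Abcc exporters, several of which return conjugates to blood when bile flow fails, also held 0 genes past the test. Abcc6, a liver exporter whose loss causes ectopic mineralisation, was at 3132, 3932, 1506, 1891 and 2332 in control and 3010, 1711, 3486, 2765 and 2001 in mulberry rats. It varied 2.61-fold between the extreme rats, and the difference of 0.06 ± 0.26 (-0.50 to 0.61) was smaller than its SE. Abcc4, the MRP4 pump for bile acids and cyclic nucleotides, read 221, 219, 150.2, 249 and 231 and 189, 232, 183, 186 and 193. In the mulberry group rat 2 stood apart from the other 4, which lay between 183 and 193 (-0.10 ± 0.15, -0.42 to 0.22). Abcc3, the MRP3 pump that is induced in cholestasis, was under the filter level, with 50.5, 75.6, 14.6, 13.5 and 24.3 in control and 18.2, 16.4, 20.4, 13.5 and 50.1 in mulberry rats. Control rats 1 and 2 and mulberry rat 5 were at 50.1 or more and the others at or under 24.3.

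Abcc1, the measured member nearest to the filter level, and Abcc5 had the largest within-group SDs of the measured transporters, 0.66 and 0.69, with differences of -0.30 ± 0.36 and 0.27 ± 0.37. The K-ATP channel subunit genes Abcc8 and Abcc9 pair with potassium channels and do not pump substrates. Abcc8 was among the 5 transporters with the smallest p on the higher side, at 151, 162, 129, 157 and 96.9 in control and 128, 158, 164, 176 and 171 in mulberry rats. Control rat 5 was lowest, and the difference was 0.19 ± 0.16 (-0.16 to 0.54, exact permutation p = 0.198). Abcc9, typical of vascular cells, differed by -0.08 ± 0.25 and varied 2.65-fold over the 10 rats.

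Lipid transporters held 0 genes past the test. Of the 8 lipid genes of the Abca and Abcg families above the filter level, 6 were higher and 2 lower with mulberry in the mean; their median was 0.031 and their range ran from -0.12 to 0.15. Abca1, which loads cholesterol and phospholipid onto apolipoprotein A-I to form HDL, was measured at 1895, 1938, 1919, 2112 and 2458 in control and 1990, 2124, 2062, 2080 and 2225 in mulberry rats. Control rat 5 was highest, the mulberry rats were tightly grouped, and the difference was 0.03 ± 0.10 (-0.18 to 0.23), or from 0.884 to 1.18 times control. Its 3 other probe sets gave 0.06, -0.12 and -0.01. Abcg1, which passes cholesterol to mature HDL and is strong in macrophages, had 435, 411, 496, 354 and 354 and 365, 459, 348, 409.8 and 526. Both groups covered nearly the same range (0.03 ± 0.14, -0.27 to 0.34). The other probe sets of Abcg1 gave 0.14 ± 0.22 and 0.28 ± 0.33.

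Abca3, a phospholipid pump best known from lung surfactant, read 761, 768, 604, 612 and 445 in control and 499.7, 548, 625, 612 and 592 in mulberry rats. The control rats spread more widely than the mulberry rats, and the difference was -0.12 ± 0.15 (-0.44 to 0.20); its second probe set gave -0.17 ± 0.15. Abca7 was under the filter level, at 11.5, 9.94, 10.1, 11.4 and 39.2 in control and 46.7, 4.07, 23.7, 16 and 14 in mulberry rats, with control rat 5 and mulberry rat 1 highest. Of the less studied members, Abca8a differed by 0.15 ± 0.17, Abca8 by 0.03 ± 0.20 and Abca2 by 0.09 ± 0.24.

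Organelle transporters of the Abcb family showed differences from -0.15 to 0.08. Abcb10, a mitochondrial inner membrane transporter linked to heme synthesis, was at 866, 810.5, 899, 866 and 1010 in control and 722, 709, 900, 685 and 1025 in mulberry rats. Mulberry rats 1, 2 and 4 lay below every control rat while mulberry rat 5 was the highest of all 10. The difference was -0.15 ± 0.13 (-0.43 to 0.13, exact permutation p = 0.286), and -0.09 ± 0.13 on its second probe set. Abcb6, a porphyrin-related transporter, gave 539.8, 601, 431, 466 and 505 and 653, 421, 568, 466 and 502, with a difference of 0.03 ± 0.14 (-0.27 to 0.33). Mulberry rats 1 and 2 were at its top and bottom.

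Among the cation and carnitine carriers, Slc22a5 encodes OCTN2, which brings in the carnitine needed for fatty acid oxidation. Slc22a5 was measured at 1587, 2559, 2696, 2057 and 2155 in control and 2612, 2555, 2333, 2994 and 2235 in mulberry rats. Control rat 1 was lowest and mulberry rat 4 highest, and the groups otherwise overlapped (-0.09 to 0.52 around 0.22 ± 0.14, exact permutation p = 0.19). Its relative Slc22a4, the ergothioneine carrier OCTN1, differed by -0.25 ± 0.23 (-0.76 to 0.25), from 248, 276, 151, 280.1 and 235 in control and 189.6, 241, 267, 105 and 203 in mulberry rats. Mulberry rat 4 was lowest for Slc22a4. Slc22a2, the cation carrier typical of kidney, had the largest negative difference of the measured transporters, -0.33 ± 0.26 (-0.90 to 0.24). Its values of 179.5, 86.5, 47.3, 98.5 and 69.2 in control and 58.7, 59.9, 70.9, 74.2 and 73.9 in mulberry rats show that control rat 1 lay far above the other 9, and without it the difference was -0.10.

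The 5 transporters with the smallest p on the higher side were Abcc8, Slc22a5, Slco3a1, Slc22a25 and Abcg3l1. Slco3a1, a prostaglandin and thyroid hormone carrier, was at 92.3, 81, 106, 69.9 and 67 in control and 87.6, 84.7, 133, 99.4 and 121 in mulberry rats (0.28 ± 0.18, -0.11 to 0.68). Its exact permutation p of 0.111 was the smallest of the transporters, and the groups overlapped. Slc22a25 had 178, 212, 141, 199 and 192 and 212, 240.2, 212, 216 and 168, a difference of 0.17 ± 0.14 (-0.14 to 0.48), with mulberry rat 5 below 4 of the 5 control rats. Abcg3l1 gave 186, 201, 260.3, 104 and 204 and 204, 209, 276, 169.6 and 269.5, with control rat 4 lowest (0.25 ± 0.21, -0.21 to 0.71). Slc10a7, a carrier-family member needed for skeletal development, stood at 93.6, 58.3, 124, 126 and 66.4 in control and 91.9, 111, 66.1, 159 and 97.8 in mulberry rats and differed by 0.15 ± 0.25 (-0.38 to 0.69).

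The 19 transporters at or under the filter level had intensities from 1.45 to 109.6 over all rats and were left out of the fit. In a fit without a filter their differences ran from -0.32 to 0.86, 11 higher and 8 lower, and 1 of the 64 transporters then had an unadjusted limma p under 0.05, against 2.52% of all 14217 genes in that fit. This was Abcc10, a conjugate exporter, named after its values were seen. Abcc10 was at 24.2, 21.7, 21.3, 9.17 and 32.8 in control and 54, 55.7, 56.7, 103 and 15.4 in mulberry rats. Mulberry rats 1 to 4 were above every control rat and mulberry rat 5 was below 4 of them. In the limma fit without a filter the difference of Abcc10 was 0.86 ± 0.32 (unadjusted p = 0.0203, adjusted p = 0.9999).

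Where a transporter had more than 1 probe set, they were compared. The 22 other probe sets belonged to 18 genes, and 17 were above the filter level. Of these, 11 had the same sign as the chosen probe set and 6 the opposite sign, and 0 had an unadjusted limma p under 0.05, against 1.74% of all 18625 probe sets. The opposite signs were in Abca1 (2 probe sets), Abcb1a, Abcc9, Slc22a8 and Slco1b2.

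Other genes of bile and drug handling were read from 4 lists written from textbook knowledge. In each list 0 members passed an adjusted limma p of 0.05 and 0 an unadjusted p of 0.05. Of all 10328 genes tested, 0% and 1.79% passed these thresholds. Among 14 receptors and regulators 6 had a higher and 8 a lower mean (median -0.044). Nr0b2, the bile acid-induced repressor SHP, was at 9981, 6529, 7357, 4550 and 9454 in control and 7594, 4793, 5043, 4971 and 6579 in mulberry rats, a difference of -0.36 ± 0.20. Control rats 1 and 5 were highest, and control rat 4 was the lowest of all. Ppara, the fatty acid receptor, differed by -0.59 ± 0.36, with mulberry rat 2 at 25.8 and the other 9 rats from 130 to 232. Of 16 genes of bile acid synthesis and conjugation 7 were higher and 9 lower (median -0.015), with Hsd17b4 of peroxisomal side-chain shortening at 0.13 ± 0.09 and the bile acid-CoA ligase Slc27a5 at -0.10 ± 0.08.

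Transport partners, the flippases, scaffolds and sterol carriers that work beside the pumps, were split 8 higher and 9 lower (17 genes, median -0.034). Pdzk1, a scaffold of several carriers at the membrane, was at 0.22 ± 0.13, and Tmem30a, the subunit of phospholipid flippases, at -0.12 ± 0.07. For Tmem30a, mulberry rats read 6482, 7021, 6459, 6190 and 6213 and control rats 6445, 7066, 7356, 7172 and 7213, so that control rat 1 alone lay within the mulberry range. In the list of other drug and solute carriers 4 were higher and 11 lower (15 genes, median -0.051), with the antigen peptide transporter Tap1 at 0.37 ± 0.20 and the folate carrier Slc19a1 at -0.42 ± 0.31.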

How the data were processed

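Liver RNA of 5 control and 5 mulberry rats was measured on 1 array each. The table the authors deposited holds linear intensity for 31099 probe sets. MAS5 and the affy package appear in the submitters' processing notes, with neither version nor role. The mean intensity after trimming 2% at each end was 500 on every array, so values were used as already scaled, without detection calls. After 57 control probe sets were left out, log2(intensity + 16) was computed, which understates differences of dim probe sets. The test used the 18625 probe sets whose mean log2 value exceeded the 40th percentile.

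Groups and rat numbers came from the sample titles. Mulberry was compared with control in limma 3.58.1 (R 4.3.3; lmFit, eBayes with a variance trend), two-sided, adjusting over every tested probe set by Benjamini-Hochberg, after the test was tried on simulated data. Each gene also had an exact permutation test, two-sided, with all 252 assignments of rats. Pair correlations used permutation tests (all orders or 100000 resamples; scipy 1.17.1) adjusted over 7 pairs; the eighth planned pair needed a gene that is not reported here.

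The members and lists were chosen with earlier results of these data known. Values in every rat are given for 25 transporters of a fixed list and for the 5 genes with the smallest p in each direction. They are also given for genes whose groups do not overlap. Of each other list the 2 genes with the smallest p are named. Names came from the platform annotation, and all 86 probe sets matched a RefSeq gene of GRCr8 by identifier; 55 transporters had an upstream sequence there, and none is printed for the rest. Precision is limited by the number of arrays, and intensities of different genes were not compared. Alternatives were pseudocounts of 1 and 64, other filters, array weights, a replicate block, quantile normalization, a shift to a common median, a fit without the variance trend, the permutation test per probe set, the mean of a gene's probe sets, a threshold of 0.1 on the adjusted p, and the omission of each array in turn.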

Additional observations from a re-analysis of the deposited data

Results flagged for a closer look

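The 29 transporters above the filter level with values given rat by rat made 58 groups of 5 rats, control and mulberry. In each group the highest and the lowest rat were compared with the others by Dixon's rule. Chance meets that rule in about 1 of 20 groups. Transporters under the filter level, Abca7, Abcc3 and Abcc10 among them, were not compared in this way. The rule was met once in the 58 groups. For Abcc4, the MRP4 pump, mulberry rat 2 had an intensity of 232.5 while the other mulberry rats lay between 182.6 and 193.1; the gap was 0.79 of the group's range. That value lies inside the range of the control rats, and the cause was not tested.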

How the results depend on the processing

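Under each of the 21 alternatives run, limma or, in 1 of them, the exact permutation test called 0 transporters, also at an adjusted p under 0.1, and 0 probe sets wherever probe sets were the unit; the transporters with an unadjusted p under 0.05 numbered at most 1 in any setting, where 1.38% to 2.83% of all features tested had one. The permutation test could hardly call any after adjustment, since its smallest possible p is 0.00794. Transporters with a higher mean numbered 24 of 45. Their number was 17 of 35 with the filter at the 60th percentile and 35 of 64 without a filter. It was 20 to 28 when 1 array was left out. Of 29 named transporters 16 kept their sign in every setting, but in 14 of these the difference shrank over 1.5 times with 1 array left out: Slc10a1 (-0.032), Slc10a7 (0.0077), Slc22a4 (-0.058) and Abcb10 (-0.097) without mulberry rat 4, Abcg2 (-0.039) and Slco2b1 (0.023) without mulberry rat 1, Abcc2 (0.044) without mulberry rat 5, Slc22a2 (-0.10) and Slc22a5 (0.11) without control rat 1, Abcc4 (-0.045) and Abcg3l1 (0.069) without control rat 4, and Abca3 (-0.051), Slc22a25 (0.088) and Abcc8 (0.077) without control rats 2, 3 and 5 in turn. The sign turned with array weights in Abcb6 (-0.011), Abcc6 (-0.12), Abcg5 (0.08), Slc22a7 (0.00081) and Slc22a8 (-0.013), with the mean of a gene's probe sets in Abca1 (-0.011), Abcb1a (0.029), Slc22a8 (-0.095) and Slco1b2 (0.0028), and with a median shift in Abcg8 (-0.0058) and Slc22a8 (-0.025). Leaving out 1 array in turn gave ranges across 0 in Abca1 (-0.00092 to 0.092), Abcb11 (-0.19 to 0.081), Abcb1a (-0.21 to 0.074), Abcb4 (-0.15 to 0.035), Abcb6 (-0.053 to 0.10), Abcc6 (-0.11 to 0.23), Abcg1 (-0.046 to 0.10), Abcg5 (-0.19 to 0.063), Abcg8 (-0.10 to 0.18), Slc22a7 (-0.11 to 0.011), Slc22a8 (-0.06 to 0.14), Slco1a1 (-0.085 to 0.07) and Slco1b2 (-0.082 to 0.0013); the cause was not tested. Without the 2 farthest rats r turned for Slc10a1 and Abcb11 (-0.02), Abcb4 and Abcb11 (-0.09), Abcc2 and Abcc3 (-0.17), Abca1 and Abcg1 (0.18) and Nr0b2 and Slc10a1 (-0.05, or -0.10 as rho and -0.11 as deviations). Rats of the 2 groups share only a number: deviations of same-numbered rats correlated between -0.33 and 0.096, 2 of 10 arrays correlated best with their own number, and with the replicate block limma called 0 probe sets and 0 transporters, with 24 transporters higher.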

Other observations

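The 45 transporters above the filter level were also read rat by rat, without a test of any single animal. Mulberry rat 3 had the highest value of the 10 rats for 7 of them and the lowest for 1, with a mean deviation of 0.10 on the log2 scale. Control rat 3 was lowest for 9 and highest for 2 (mean deviation -0.083), mulberry rat 4 lowest for 8 and highest for 5 (-0.072), and control rat 1 lowest for 8 and highest for 2, although its mean deviation was 0.027.

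For Slco5a1, a member with no settled substrate, both probe sets lay under the filter level and differed in sign. The chosen one differed by 0.34 and the other by -0.72 ± 0.33 (SE), from a control mean of 52.1 ± 20.2 to a mulberry mean of 27.6 ± 18.9 (SD over 5 rats). Slco4a1, an organic anion carrier of many tissues, showed the same split, at 0.34 and -0.28 ± 0.29. Both genes were picked out after their values were seen.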
